A study of Mus musculus with 3 samples.

Results

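Regions marked by trimethylation of histone H3 at lysine 4 (H3K4me3) and regions bound by the retinoic acid receptor beta (RARβ) were described at 5 genes of glial cells in mouse caudate putamen, a part of the striatum in the forebrain. The members were all peaks with at least 1 bp in 1 of 4 windows of genome build mm9. These were chr11:102740000-102770000 at Gfap, chr2:102490000-102640000 at Slc1a2, chr18:82635000-82765000 at Mbp and chr16:91215000-91285000 at Olig1 and Olig2. The windows held 26 of the 35971 H3K4me3 peaks and 5 of the 8075 RARβ peaks. The tissue came from wild-type male mice on a background mixed from C57BL/6J and 129SvEms/j, and the labels give neither their age nor how many animals went into a library. Chromatin was precipitated with 1 antibody per library, anti-RARbeta (sc-552), anti-H3K4me3 (ab8580) or anti-GFP (ab290), and sequenced (ChIP-seq). No peak list of the anti-GFP library was analysed here. Both lists were called against 1 control library whose antibody the file headers do not name, so whether the fold, score and FDR values rest on the anti-GFP library is not known from them. With 1 library per antibody, no value below has a replicate error and no test between conditions was made.

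Gfap encodes an intermediate filament protein of astrocytes, and Slc1a2 the astrocytic glutamate transporter GLT-1. Mbp encodes myelin basic protein, a main protein of the myelin sheath that oligodendrocytes wrap around axons. The Mbp locus also gives longer golli transcripts, which start upstream of the classic myelin transcripts. Olig1 and Olig2 encode basic helix-loop-helix transcription factors of the oligodendrocyte lineage. The receptor RARβ is activated by retinoic acid and usually sits on DNA as a dimer with a retinoid X receptor, at repeats of a 6-base core motif, and H3K4me3 marks the starts of active genes. The peaks come from whole tissue, so a mark carried by few cells and a weak mark carried by many cells cannot be told apart.

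Neighbouring protein-coding genes, by the RefSeq gene table of GRCm38.p6, are Fam187a and Kif18b for Gfap (gene ID 14580), Pamr1 and Cd44 for Slc1a2 (20511), and Galr1 and Zfp236 for Mbp (17196). Olig2 (50913) lies between 4932438H23Rik and Olig1, and Olig1 (50914) between Olig2 and Ifnar2. An annotation of mm9 was not used here. Peaks are therefore assigned to windows, and which transcript start, exon or intron a peak covers was not determined. For the same reason, the sequences of the peaks themselves were not read.

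To show what the promoters of loci without a RARβ peak look like, the 250 bases before the listed start were taken from RefSeq (GRCm38.p6), which held such a sequence for 3 of the 5 genes. The Gfap sequence is chr11:102897201-102897450, minus strand, and the Olig2 sequence is chr16:91225300-91225549, plus strand. Capitals mark matches on either strand to any of 4 core motifs of retinoic acid response elements, which are spelled out after the sequences.
Gfap: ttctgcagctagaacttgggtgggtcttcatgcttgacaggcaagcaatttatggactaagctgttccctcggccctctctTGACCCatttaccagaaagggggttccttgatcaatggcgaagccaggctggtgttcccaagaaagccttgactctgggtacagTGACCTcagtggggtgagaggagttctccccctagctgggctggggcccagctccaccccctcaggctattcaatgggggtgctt
Olig2: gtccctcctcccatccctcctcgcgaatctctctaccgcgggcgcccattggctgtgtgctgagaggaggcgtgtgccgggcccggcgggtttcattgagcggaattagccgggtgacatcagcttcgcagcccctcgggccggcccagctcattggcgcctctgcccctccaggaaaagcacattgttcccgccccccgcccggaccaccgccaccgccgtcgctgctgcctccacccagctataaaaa
The Gfap sequence held 1 match to AGGTCA and 1 to GGGTCA, both on the opposite strand. Of the 4 motifs, which differ in their letters and cannot match at the same place on a strand, AGGTCA was found in 14.0% of the 32851 RefSeq promoters of this length. The motif GGGTCA occurred in 11.6% of them, AGTTCA in 11.8% and GGTTCA in 8.85%. At least 1 of these 4 was found in 38.6%. The Olig2 sequence and the Slc1a2 sequence (chr2:102706188-102706437, plus strand, at a start inside the gene) held none. Direct repeats of these motifs, GGTTCA excepted, with spacers of 1, 2 or 5 bases (DR1, DR2 and DR5), searched in the same way on both strands, were in none of the 3 sequences. They occurred in 0.143%, 0.0852% and 0.0639% of the promoters. The sequences also differed in CpG dinucleotides, with 22 in the Olig2 promoter, 2 in that of Gfap and 1 in that of Slc1a2, where the median promoter had 6. These positions are of another build than the peaks and were not compared with them.

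The H3K4me3 mark was present in all 4 windows. Peaks of at least 1000 tags are called strong here and the others weak, a split made for description only. Of the 26 peaks, 6 had 1207 to 2022 tags, and the other 20 had 42 to 315. A tag is a sequenced read kept after duplicates at a position were removed. Over the whole list, the median was 206 tags, and 25.3% of the peaks had at least 1000. Among those called weak, the peaks of 315 and 207 tags were above that median. The 6 strong peaks were also the only ones among the 26 to which the authors' peak caller gave a false discovery rate (FDR) of at most 5%, each at 3.36%, while 35.0% of all H3K4me3 peaks passed that limit. The value of 3.36% was also the lower quartile of the FDR in the whole list, so many other peaks share it. The FDR of the other 20 was 10.81% to 21.41%. The strong peaks held 9552 of the 11921 tags in the windows, or 80.1%.

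**Figure D1:**
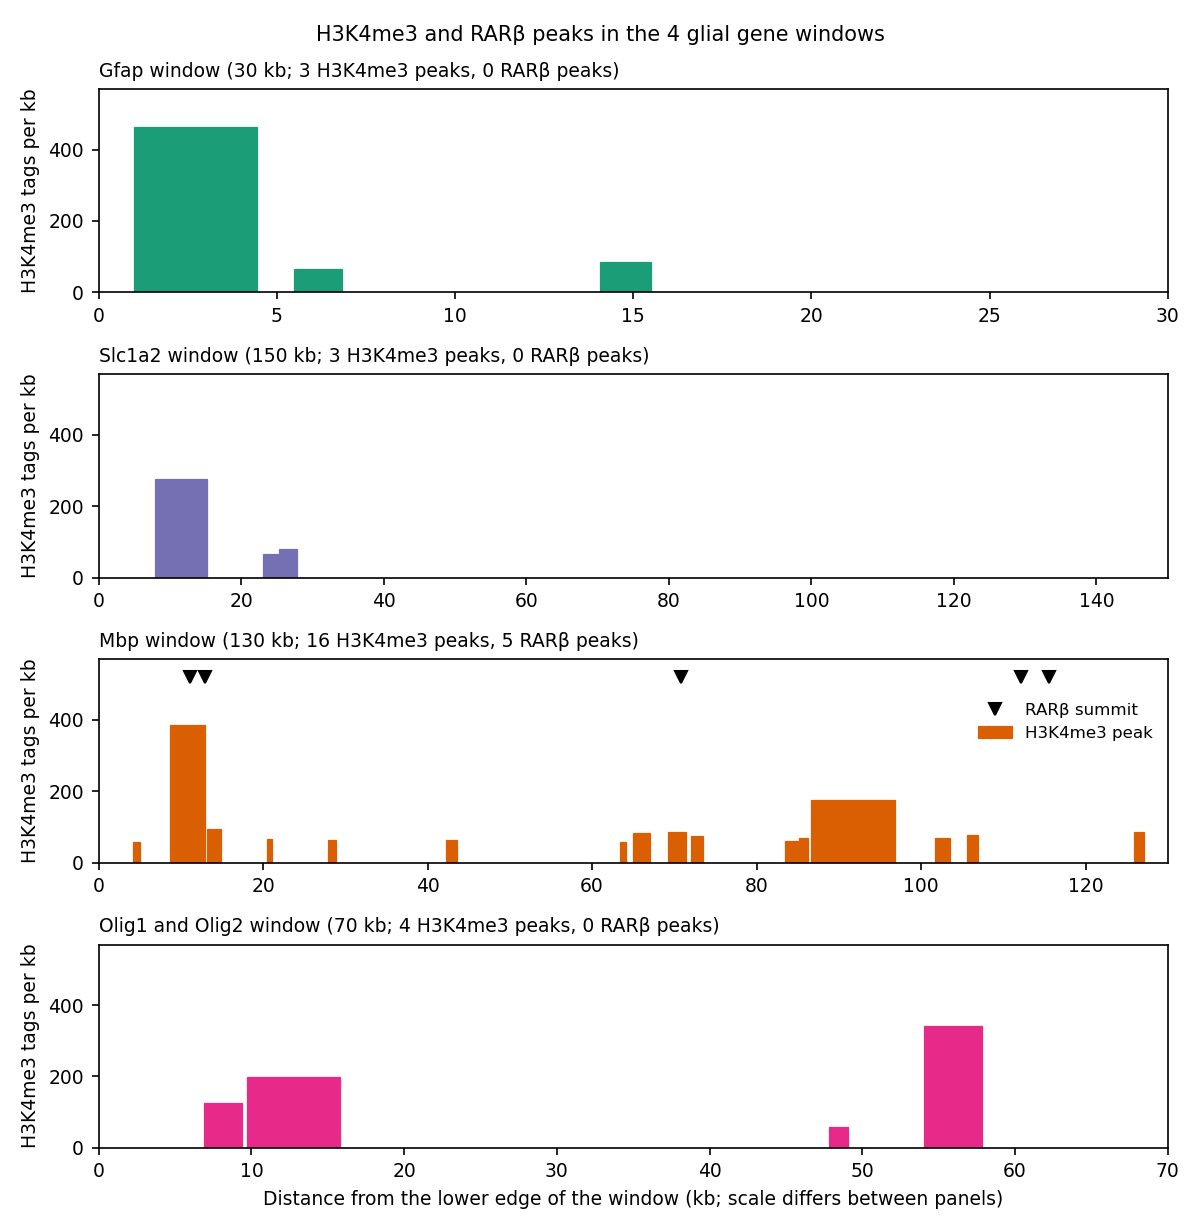
Position of H3K4me3 peaks (bars, as wide as the peak, with their height in H3K4me3 tags per kb of peak) and of RARβ summits (triangles, whose height carries no value) in the 4 windows, plotted against the distance in kb from the window's lower edge. The 6 strong peaks stand at 174 to 463 tags per kb, the other 20 at 56.6 to 127, and all 5 RARβ summits lie in the Mbp window.

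Among the astrocyte genes, the strongest mark by tags was in the Slc1a2 window. This peak, at chr2:102497949-102505243, was 7295 bp wide and wider than 98.2% of all H3K4me3 peaks. It had 2022 tags (exact Poisson 95% interval 1935 to 2112) and a fold enrichment over the local background of 45.26. Both values lie near the top of the list, in which 93.5% of the peaks had fewer tags and 95.9% a lower fold. The mark was restricted to the lower end of this window. Another pair of H3K4me3 peaks followed at 102513110-102515191 with 135 tags and at 102515259-102517848 with 207, separated by 67 bp, and the rest of the 150 kb had none.

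The Gfap window held 3 H3K4me3 peaks. The strongest, at chr11:102740982-102744431, was 3450 bp wide with 1597 tags (exact Poisson 95% interval 1520 to 1677). Per length it was the densest of the 26, at 463 tags per kb, above 89.6% of the list. Its fold enrichment of 11.49 was near the middle, above only 53.2% of the list. The remaining peaks of the window were weak, at 102745469-102746838 with 91 tags and at 102754065-102755489 with 121. No H3K4me3 peak lay above 102755489 in this window. Whether any of these peaks lies at the start of Gfap or belongs to a neighbouring gene was not determined. The strongest peak is therefore a value of the window and not of the Gfap promoter.

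Among the oligodendrocyte genes, the Olig1 and Olig2 window held a pair of strong peaks with a long gap between them. The lower, at chr16:91224719-91230830, was 6112 bp wide with 1207 tags (exact Poisson 95% interval 1140 to 1277). The upper, at chr16:91269008-91272852, was narrower at 3845 bp and had 1308 tags (1238 to 1381). Tags were therefore denser in the upper peak, at 340 per kb against 197. A shoulder of 315 tags at 91221929-91224414 lay 304 bp below the lower strong peak, and a weak peak of 75 tags at 91262838-91264092 lay 4915 bp below the upper one.

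The Mbp window differed from the others in how many peaks it held. It had 16 H3K4me3 peaks in 130 kb, against 10 in the other 3 windows, which span 250 kb. The whole H3K4me3 list amounts to 1.92 peaks per 100 kb of the effective genome, against 12.3 per 100 kb here. The genome was divided into consecutive tiles of 130 kb, and 11905 tiles held at least 1 H3K4me3 summit, with a median of 2. In 3 of them (0.0252%) there were 16 or more. With the tiles moved by 65 kb the number was 7 of 11911. With peaks at most 500 bp apart joined, the window had 13, and 21 of the tiles had as many or more. The window was placed on a gene and the tiles on a grid, so this is a description of the list and no test.

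Most of these peaks were weak. The Mbp window held 14 peaks with an FDR above 5%, with 42 to 194 tags, widths of 624 to 2224 bp and fold enrichments of 2.73 to 7.29. Over all windows, the 20 weaker peaks had 2.23 to 4.99 times the average tag density of the H3K4me3 library, which was 25.4 tags per kb of the effective genome. The strong peaks had 6.87 to 18.2 times that average. The control library of the peak caller had been scaled up to an H3K4me3 library with 12.8 times as many tags, so the fold and FDR of a weak peak rest on few control tags.

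The strong peaks of the Mbp window differed in shape. The lower, at chr18:82643730-82647955, was 4226 bp wide with 1629 tags (exact Poisson 95% interval 1551 to 1710) and a fold enrichment of 43.09. The upper, at chr18:82721596-82731859, was 10264 bp wide, the widest of the 26, with 1789 tags (1707 to 1874) and a fold enrichment of 15.96. The upper peak was thus 2.43 times as wide with 1.10 times the tags, at 174 tags per kb against 385. Only 177 peaks of the whole list (0.492%) were at least as wide. A weaker peak ended 346 bp below it, and another lay 50 bp below that one, so that the 3 formed a run that spanned 13.4 kb, at 82718492-82731859.

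**Figure D2:**
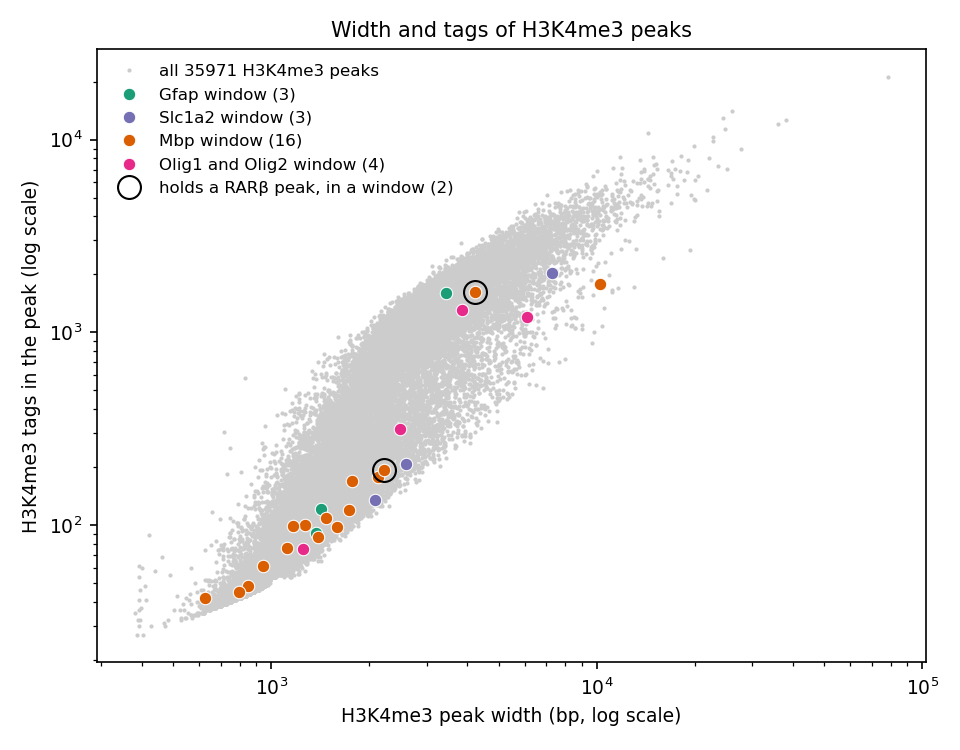
Tags against width (bp) for all 35971 H3K4me3 peaks (grey, both axes on a log scale), with the 26 peaks of the 4 windows in colour and those that hold a RARβ peak ringed. The 6 strong peaks lie at 1207 to 2022 tags and the widest, in the Mbp window, at 10264 bp.

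By tag density the 6 strong peaks were ordered as follows. The Gfap window came first at 463 tags per kb (exact Poisson 95% interval 440 to 486), then the lower Mbp peak at 385 (367 to 405) and the upper peak of the Olig window at 340 (322 to 359). Slc1a2 followed at 277 (265 to 290), then the lower peak of the Olig window at 197 (186 to 209) and the upper Mbp peak at 174 (166 to 183). No neighbours in this order overlapped in their intervals, which cover counting error only and no variation between animals. The densities are averages over the called width, so a wide peak with a long tail has a lower one.

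The strong peaks shared an asymmetry. In 6 of 6 the summit lay on the side of lower coordinates, at 16.1% (Slc1a2) to 31.0% (Gfap window) of the width from the lower edge of the peak. Among all 9090 H3K4me3 peaks of at least 1000 tags, 17.0% had the summit in the third of the width at lowest coordinates and 16.5% in the third at highest. Slc1a2 and Olig2 are on the plus strand in the RefSeq table and Gfap on the minus strand. Which gene start a strong peak covers was not determined, so the asymmetry was not compared with the direction of transcription. The asymmetry was chosen as a feature after the values were seen.

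RARβ peaks occurred in the Mbp window only, and the windows of Gfap, Slc1a2 and of Olig1 and Olig2 held 0. Tiles of the same length as these windows, among those with an H3K4me3 summit, were without a RARβ summit in 79.1% of cases for the 30 kb of Gfap, 59.9% for the 150 kb of Slc1a2 and 71.3% for the 70 kb of the Olig genes. An absence of this kind was therefore common among tiles with any H3K4me3 summit. The tiles were not chosen to hold strong H3K4me3 peaks, as these windows do. Of H3K4me3 peaks of at least 1000 tags, 26.7% held a RARβ peak, against 8.46% of those under 1000. The fewest tags of any RARβ peak was 7, and sites with fewer were not detectable at this depth of 2237580 filtered tags. These were left of 4994799 tags after duplicates at a position were removed. In the Mbp window, 5 RARβ peaks in 130 kb were a number reached by 158 of the 11905 tiles (1.33%). Chromosome 18 as a whole had 20.2 RARβ peaks per 100 H3K4me3 peaks, against 22.4 in the lists as a whole and 31.2 in the Mbp window.

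**Figure D3:**
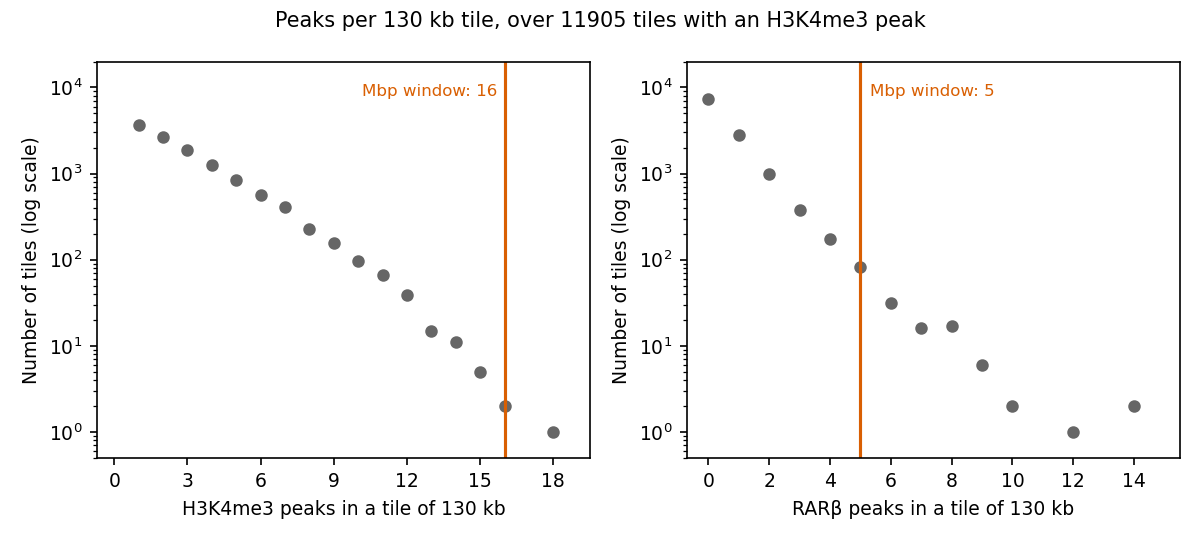
Number of tiles of 130 kb (log scale) against the number of H3K4me3 summits (left) or RARβ summits (right) they hold, over 11905 tiles with an H3K4me3 summit, with the count of the Mbp window as a vertical line. The line stands at 16 for H3K4me3, and 3 tiles hold as many or more. For RARβ it stands at 5, and 158 tiles hold as many or more.

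The first pair of RARβ peaks lay in the lower strong H3K4me3 peak of Mbp. At chr18:82645895-82646546 there were 11 tags (exact Poisson 95% interval 5.49 to 19.7). Its fold enrichment was 13.41 and its score 69.4, where the score is −10 times log10 of the p-value. Its summit lay 1299 bp from the H3K4me3 summit. At chr18:82647550-82648033 there were 8 tags (3.45 to 15.8), a fold enrichment of 19.99 and a score of 73.72. This summit was only 75 bp inside the upper edge of the H3K4me3 peak and 3104 bp from its summit. Neither RARβ peak was thus centred on the mark, and their summits were 1805 bp apart.

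The middle RARβ peak lay in a weak H3K4me3 peak. It was at chr18:82705350-82705979 with 8 tags, a fold enrichment of 23.21 and a score of 69.58. The H3K4me3 peak around it, at 82704199-82706422, had 194 tags and an FDR of 21.41%, and the summits were 310 bp apart. In tags this H3K4me3 peak was above 48.5% of the list. Among the weak peaks of the Mbp window it had the most tags and the highest score, 462.12, although its FDR was also the highest. The last pair lay outside the mark. The peak at chr18:82746752-82747275 had 7 tags (exact Poisson 95% interval 2.81 to 14.4) and a fold enrichment of 19.16, and lay 4.87 kb from the nearest H3K4me3 peak. The peak at chr18:82750395-82750796 had 7 tags and a fold enrichment of 23.32, and lay 8.52 kb away. The broad H3K4me3 peak of 10264 bp held no RARβ peak, and the nearest was 14.9 kb from it. Of the 177 peaks of the list that were at least as wide, 68.4% held one.

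The mark overlapped 3 of the 5 RARβ peaks, where 64.9% of all RARβ peaks did. Conversely, a RARβ peak was found in 2 of the 26 marked regions, where 13.1% of all H3K4me3 peaks did. Among the 6 strong peaks it was 1, where 26.7% of all peaks of at least 1000 tags did, and among the 20 weaker ones it was 1, where 8.46% of peaks under 1000 tags did. With so few members these counts are near the background. The lower Mbp peak held a pair of RARβ peaks, as did 3.67% of all H3K4me3 peaks of at least 1000 tags, counting those with 2 or more.

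The RARβ peaks at Mbp were of ordinary to low strength. They had 7 to 11 tags where the median of the list was 10, and 4 of 5 were below it. Their scores, from 64.37 to 73.72, were all below the list's median of 75.32, and none reached 100, which 27.4% of all RARβ peaks did. Fold enrichment was nearer the middle, at 13.41 to 23.32 against a median of 19.35, with 2 of 5 below. Their FDR was 0.06% to 0.11%, around the list's median of 0.09%. These values should not be set against the FDR of the H3K4me3 peaks. Filtered tags numbered 2237580 for RARβ and 47461843 for H3K4me3, against 3703580 for their common control. Per length they had 12.7 to 17.4 tags per kb, against a list median of 15.2. This was 10.6 to 14.6 times the average of the RARβ library of 1.20 tags per kb. The tag intervals of all 5 overlap, so no order of strength among them can be read.

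**Figure D4:**
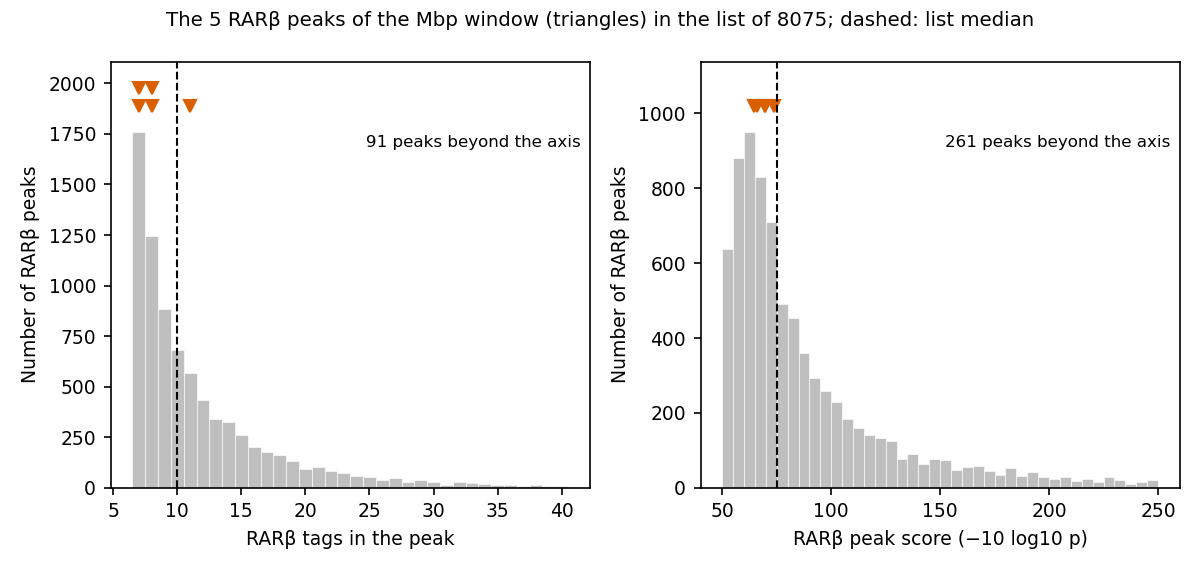
Number of RARβ peaks by tags in the peak (left) and by score, −10 log10 of the p-value (right), for the list of 8075, with the 5 peaks of the Mbp window as triangles (stacked where tag numbers are equal) and the list median as a dashed line. The 5 peaks have 7 to 11 tags and scores of 64.37 to 73.72, all to the left of the median score of 75.32.

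Around the windows without a RARβ peak, the nearest ones lay 126 to 946 kb from the window. The whole RARβ list is sparse, at 0.432 peaks per 100 kb of the effective genome. Whether these distances are unusual was not tested. For Gfap they were 322 kb below the window, at chr11:102416795-102418019 with 17 tags, and 126 kb above it, at chr11:102896473-102897106 with 7. The latter position is of mm9 and is not that of the Gfap promoter printed above, whose similar numbers are of GRCm38.p6. For Slc1a2 they were 199 kb below, at chr2:102290243-102290903 with 9 tags, and 946 kb above, at chr2:103586327-103586880 with 8. For Olig1 and Olig2 they were 158 kb below, at chr16:91056271-91057277 with 17 tags and a score of 148.44, and 180 kb above, at chr16:91464674-91465354 with 13. The strongest H3K4me3 peaks of these windows, with 1308 to 2022 tags, were thus more than 150 kb from any RARβ summit, the closest distance being 155 kb at Gfap.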

How the data were processed

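RARβ and H3K4me3 peak lists of 1 library each were used. The submitters' processing notes name CASAVA 1.8.2, Bowtie and build mm9. Per the file headers, the authors called peaks with MACS 1.4.2 on each library against the same control, at a p cutoff of 1e-05, keeping 1 tag per position. The headers do not name the control's antibody. Filtered tags numbered 2237580 of 4994799 (RARβ), 47461843 of 60367942 (H3K4me3) and 3703580 of 5407922 (control). Deposited values are tag counts per peak without normalization, fold enrichment (a ratio to the local background), a score of −10 times log10 p whose column name was lost and was recognised from the column order, and FDR in percent.

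Peaks with at least 1 bp in a window were members, and peaks sharing at least 1 bp overlapped. Every RARβ peak was named, and of the H3K4me3 peaks the widest, the most tagged and those holding RARβ in each window. Exact Poisson 95% intervals cover counting error only, since each rests on a count from 1 library. The reads carry no molecular identifiers, so PCR copies could be removed only by position. Overlap and rank functions were tested on simulated data. Members, windows and lists were chosen with earlier results of these data known. Other glial and neuronal genes were not analysed here, as no mm9 annotation was used. Python 3.11.15, numpy 2.4.6, pandas 2.3.3, scipy 1.17.1 and matplotlib 3.10.9 were used.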

Additional observations from a re-analysis of the deposited data

How the results depend on the processing

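Of 25 alternative values, 24 planned and 1 chosen after seeing the data, 17 stayed close to those reported (counts and lengths within 1.5 times, tags within the Poisson interval). Counting peaks by their summit in the window, or overlap by the RARβ summit or by 50% of the RARβ peak, changed no count. When the H3K4me3 list was limited by FDR to at most 5%, the windows held 6 H3K4me3 peaks in place of 26, 35192 bp of marked length in place of 65474 and 9552 tags in place of 11921, and 1 H3K4me3 peak held RARβ in place of 2. With RARβ peaks of a score of at least 100, there were 0 RARβ peaks in place of 5, 0 overlapping ones in place of 3 and 0 H3K4me3 peaks holding one in place of 2. With windows widened by 50 kb on each side, the tags came to 13882 and the RARβ peaks to 6. Joining H3K4me3 peaks at most 500 bp apart, the alternative chosen after seeing the data, gave 21 peaks. The depth of the RARβ library, with at least 7 tags in every peak, limits what its absence from 3 windows can show.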

Other observations

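Within 50 kb outside the windows, 11 H3K4me3 peaks and 1 RARβ peak were found. The strongest H3K4me3 peak among them, at chr11:102785542-102787397 above the Gfap window, was 1856 bp wide with 620 tags, a fold of 45.84 and an FDR of 3.36%. The other 10 had 42 to 248 tags. No H3K4me3 peak lay within 50 kb outside the Mbp window, in contrast to the 16 inside it. The RARβ peak, at chr18:82804713-82805276, lay 39.7 kb above the Mbp window with 7 tags (exact Poisson 95% interval 2.81 to 14.4), at a fold of 18.24 and a score of 60.43. Below that window the nearest RARβ peak was 1196 kb away, at chr18:81438566-81439215 with 8 tags.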
